A study of Mus musculus with 44 samples.

Results

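The Hox-linked miRNAs of the mouse hypothalamus were 5 of the 1978 mature miRNAs in the deposited count table, named there mmu-miR-10a-5p, mmu-miR-10b-5p, mmu-miR-196a-5p, mmu-miR-196b-5p and mmu-miR-615-3p. They were taken by name, as the mature miRNAs whose genes lie inside or beside the Hox clusters, and each was followed in all 44 libraries. The rule that takes them uses no measured value. The hypothalamus, at the base of the forebrain, controls hunger and energy balance, and every library came from hypothalamus RNA of C57Bl/6J mice. AM132 (16 libraries) came from mice made obese by 11 weeks of high fat diet and injected with an oligonucleotide of 16 nt complementary to miR-132 and protected by locked nucleic acid (LNA) bases. AM608 (16 libraries) came from mice made obese in the same way and injected with an LNA oligonucleotide of 15 nt complementary to miR-608, a primate miRNA, as the control. The oligonucleotides were given intravenously at 3.3 mg/kg on 3 days in a row, and tissue was taken 7 days later. RCD (12 libraries) came from lean mice of matched age on regular chow, and the labels do not describe them as injected, so a difference from RCD cannot be told apart between diet, obesity and injection.

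Libraries are spread over 4 batches by their labels. AM132 has 4 libraries in batch 1, 8 in batch 2 and 4 in batch 3, and AM608 has the same numbers. RCD has 4 in batch 2 and 8 in batch 4, which holds no other group. Depth was 3020192 to 5997234 miRNA counts per library (median 3996734). The labels number the libraries and do not state that each is a separate animal, so p-values measure the spread between these libraries. In whole tissue, fewer cells of a type and less of a miRNA per cell cannot be told apart. The summed level of 5 neuronal miRNAs was 186753 to 399220 CPM (counts scaled to a common library size) in every library, and none of these 5 was at 0 throughout. AM132 6 (the number after a group's name is the library's number) stood apart from the other libraries, and results that rest on it are given with and without it.

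Hox genes encode transcription factors that set position along the head-to-tail axis of the embryo, and in the nervous system they are active in the hindbrain and spinal cord rather than the forebrain, where the hypothalamus lies. The miR-10 and miR-196 genes sit within the clusters and share much of the expression domain of the neighbouring Hox genes. Both families target Hox transcripts, and miR-10 is also known from endothelial and other vascular cells. The 5 mature sequences are given because the seeds sort them into families and a single base separates the members of each pair. They are written 5′ to 3′ from RefSeq (GRCm38.p6), with the seed (bases 2 to 8) in capitals:
miR-10a-5p: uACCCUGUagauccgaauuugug
miR-10b-5p: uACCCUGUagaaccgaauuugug
miR-196a-5p: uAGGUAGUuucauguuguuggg
miR-196b-5p: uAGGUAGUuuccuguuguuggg
miR-615-3p: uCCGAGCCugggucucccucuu

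The miR-10 pair shares the seed ACCCUGU, which 2 of the 1679 mature miRNAs of the RefSeq table carry. The miR-196 pair shares AGGUAGU, also carried by 2 of 1679, and CCGAGCC of miR-615-3p is carried by 1. Counting from 1 at the 5′ end, miR-10a-5p differs from miR-10b-5p by U12A over 23 nt, and miR-196a-5p differs from miR-196b-5p by A12C over 22 nt. Each difference lies outside the seed. How the authors' counting assigned a read with a mismatch at that base is not given in the sources used here, so the split within each pair carries that uncertainty.

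The genes lie in all 4 Hox clusters (GRCm38, gene models of GENCODE vM21). Mir10a (chr11:96317165-96317274, plus strand) lies between Hoxb5 and Hoxb4, 993 bases from Hoxb4, with no host gene on its strand. Mir10b (chr2:74726070-74726137, plus strand) is in introns of Hoxd3 and Hoxd4. Mature miR-196a-5p has 2 genes, Mir196a-1 (chr11:96265164-96265265, plus strand), between Hoxb13 and Hoxb9, and Mir196a-2 (chr15:102973350-102973434, plus strand), between Hoxc10 and Hoxc9 in an intron of a Hoxc5 model. Mir196b (chr6:52230081-52230165, minus strand) overlaps an exon of a Hoxa9 model, and Mir615 (chr15:103014910-103015001, plus strand) is in an intron of Hoxc5. The miR-10 genes thus lie toward the end of their clusters expressed nearer the head, and the miR-196 genes toward the end expressed nearer the tail.

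The 5 miRNAs covered a wide range of levels, and none was among the abundant miRNAs of these libraries. Levels are CPM of each library after TMM scaling. Averaged over the 44 libraries, miR-10a-5p was at 78.4 CPM (rank 244 of 1978), miR-10b-5p at 51.8 CPM (rank 276) and miR-615-3p at 1.35 CPM (rank 624). The miR-196 pair was near the limit of detection, with miR-196b-5p at 0.0847 CPM (rank 1078) and miR-196a-5p at 0.0395 CPM (rank 1202). All 5 mature forms are 22 or 23 nt long, and no correction for ligation efficiency was possible. No library of hindbrain, spinal cord or trunk tissue was analysed here, so these levels cannot be set against a tissue in which Hox genes are active.

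The relatives of miR-10 outside the Hox clusters were far more abundant and less variable. These relatives share most of the body of miR-10 but have another seed, as their sequences show (RefSeq, GRCm38.p6, seed in capitals):
miR-99a-5p: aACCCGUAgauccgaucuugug
miR-99b-5p: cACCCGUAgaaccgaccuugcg
miR-100-5p: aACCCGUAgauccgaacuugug
On average miR-99a-5p was at 47338 CPM (rank 5 of 1978), miR-100-5p at 6778 CPM (rank 30) and miR-99b-5p at 3943 CPM (rank 42). The genes of these relatives are clustered with those of miR-125, whose mature forms miR-125b-5p and miR-125a-5p were at 27524 CPM (rank 7) and 14754 CPM (rank 18). Between the highest and the lowest of the 44 libraries the level of miR-10b-5p differed 13.4-fold and that of miR-10a-5p 5.12-fold. For miR-99a-5p that ratio was 1.82, for miR-100-5p 1.74 and for miR-99b-5p 1.49. The highest levels of miR-10b-5p and miR-10a-5p were both in AM132 6, at 264.8 and 193.9 CPM, so their ratios rest partly on that library. Without it the highest level of miR-10b-5p was 139.5 CPM (AM132 16), against a lowest of 19.8 CPM (AM608 12). That of miR-10a-5p was then 107.8 CPM (AM132 8), against a lowest of 37.9 CPM (RCD 4).

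One arm of the Mir10a, Mir10b and Mir615 hairpins held nearly all counts. The 5p arm of Mir10a had 14182 counts over the 44 libraries and the 3p arm had 104, so the 5p arm held 99.3% (Wilson 95% interval 99.1 to 99.4%). For Mir10b the 5p arm had 9079 counts and the 3p arm 38, a 5p share of 99.6% (99.4 to 99.7%). In miR-615 the 3p arm is the listed member, and it had 251 counts against 0 for miR-615-5p. The 3p arms of the miR-196 genes were at 0 in all 44 libraries. With 16 counts of miR-196b-5p, its 5p share had a Wilson 95% interval of 80.6 to 100%. miR-196a-5p, which has 2 genes, had 8 counts, so the arm shares of the miR-196 hairpins are less certain. Counting intervals here and elsewhere cover counting error only, because PCR copies of a molecule were not marked.

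Across the 8 sets of group and batch, miR-10a-5p was highest in batch 2 and lowest in RCD of batch 4. Its mean was 106.5 ± 37.8 CPM in AM132 of batch 2 (SD, n = 8), 85.0 ± 13.2 in AM608 of batch 2 (n = 8) and 85.2 ± 11.1 in RCD of batch 2 (n = 4). In batch 1 it was 79.3 ± 15.3 CPM in AM132 and 65.0 ± 12.8 CPM in AM608 (n = 4 each). In batch 3 it was 76.3 ± 4.23 CPM in AM132 and 71.4 ± 7.84 CPM in AM608 (n = 4 each), and in RCD of batch 4 it was 50.8 ± 7.16 CPM (n = 8). Ranked by their means, neighbouring sets overlapped in range throughout, so the order is not a firm ranking.

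**Figure D1:**
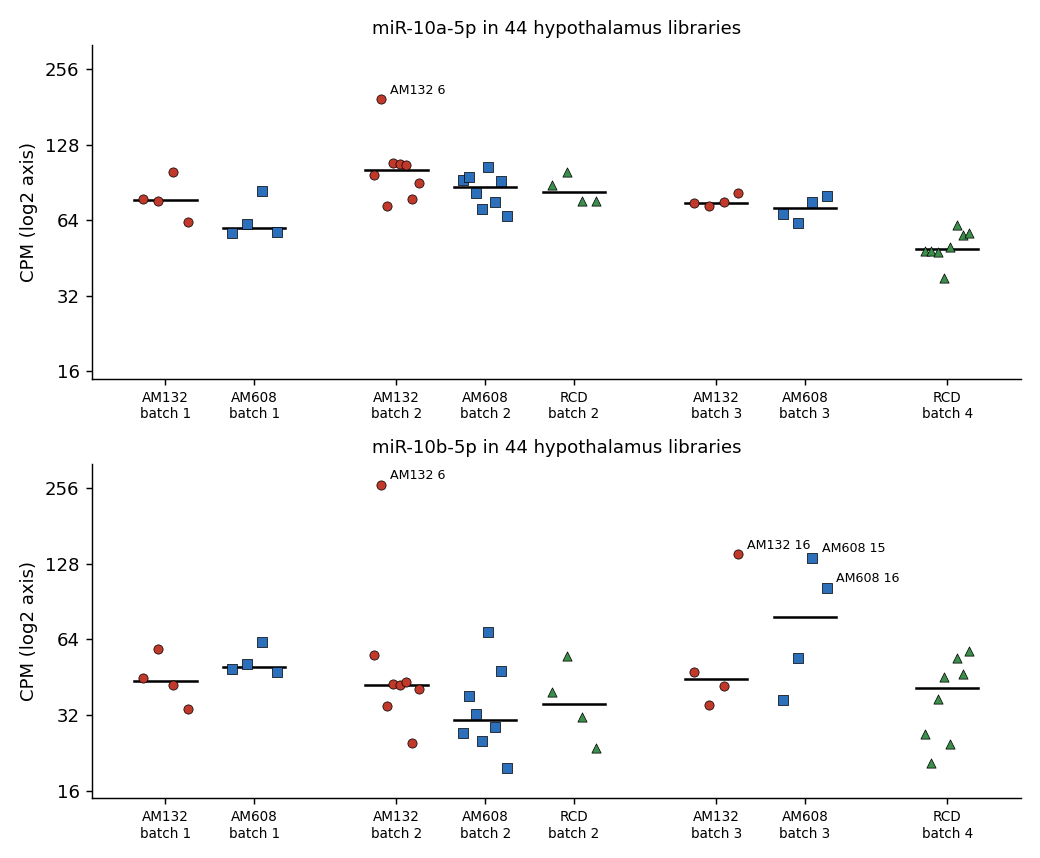
Level of miR-10a-5p (upper panel) and miR-10b-5p (lower panel) in each of 44 libraries, in CPM on a log2 axis, by group and batch, with black lines at the medians. RCD of batch 4 lies at 37.9 to 61.1 CPM for miR-10a-5p, below RCD of batch 2, while for miR-10b-5p 4 named libraries stand above the others of their batches.

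For miR-10b-5p the order of the sets differed. The highest mean was 82.3 ± 45.2 CPM in AM608 of batch 3 (SD, n = 4), followed by 68.5 ± 79.8 in AM132 of batch 2 (n = 8) and 66.0 ± 49.3 in AM132 of batch 3 (n = 4). The means were 44.9 ± 10.3 CPM in AM132 and 52.5 ± 7.02 CPM in AM608 of batch 1 (n = 4 each). The lowest means were 39.1 ± 13.9 CPM in RCD of batch 4 (n = 8), 37.4 ± 13.3 in RCD of batch 2 (n = 4) and 35.95 ± 15.7 in AM608 of batch 2 (n = 8). Neighbouring sets overlapped here too. The 3 highest means rested on 4 libraries in all, AM132 6, AM132 16, AM608 15 and AM608 16, which are described further on.

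The comparison of AM132 with AM608 addresses the action of the anti-miR-132 oligonucleotide in obese mice, and no Hox-linked miRNA passed its test. Over 16 libraries, miR-10a-5p had 62.8, 80.1 and 193.9 CPM (lowest, median, highest) in AM132, against 56.9, 75.6 and 104.3 CPM in AM608. The groups overlapped over most of their ranges, although 13 of 16 AM132 libraries lay above the AM608 mean of their batch. On the log2 scale the fold change was 0.25 ± 0.10 (SE), with p = 0.0217 and an adjusted p of 0.781 in edgeR's quasi-likelihood test over 596 miRNAs. Of those 596, 29 had an unadjusted p under 0.05 and 2 passed (0.336%), and of the Hox-linked miRNAs 0 of the 3 tested passed. Without AM132 6 the log2 fold change of miR-10a-5p was 0.16 ± 0.08 (adjusted p = 0.923). Fitted alone, batch 1 gave 0.32, batch 2 gave 0.32 and batch 3 gave 0.09, and the test for a difference between batches gave p = 0.689 (adjusted over 611 miRNAs 0.995).

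Levels of miR-10b-5p were 24.7, 42.4 and 264.8 CPM (lowest, median, highest) in AM132, against 19.8, 47.7 and 135.6 CPM in AM608, and the AM608 range lay within the AM132 range except at its lower end. Above the AM608 mean of the batch, taken in log2 CPM, were 9 of 16 AM132 libraries. The log2 fold change was 0.31 ± 0.29 (edgeR, adjusted p = 0.988), and without AM132 6 it was -0.07 ± 0.20. Fitted alone, batch 1 gave -0.18 ± 0.18, batch 2 gave 0.94 ± 0.45 and batch 3 gave -0.34 ± 0.50. The direction therefore differed between batches, but the test of that difference gave p = 0.133 (adjusted over 611 miRNAs 0.975). For miR-615-3p the log2 fold change was 0.04 ± 0.28 (adjusted p = 0.988). The relatives miR-99a-5p, miR-99b-5p, miR-100-5p, miR-125a-5p and miR-125b-5p had log2 fold changes of -0.06 to 0.07, and 0 of 5 passed.

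Batch 2 is the only batch that holds both lean and injected obese mice. There miR-10a-5p had 66.6, 87.1 and 104.3 CPM (lowest, median, highest of 8) in AM608, against 88.6, 99.4, 76.2 and 76.5 CPM in the 4 RCD libraries. The RCD values fell inside the AM608 range. AM608 over RCD had a log2 fold change of 0.04 ± 0.20 (edgeR, adjusted p = 0.985). Of 599 miRNAs tested 0 passed (0%), with 30 at an unadjusted p under 0.05 and 0 by DESeq2. Levels of miR-10b-5p were 19.8, 30.5 and 68.5 CPM in AM608, against 39.6, 54.8, 31.5 and 23.8 CPM in RCD, again within the AM608 range. Its log2 fold change was -0.01 ± 0.52 (adjusted p = 0.998), and that of miR-615-3p was 0.34 ± 0.35 (adjusted p = 0.901), or 0.57 without RCD 10 and 0.20 without RCD 11. The SE of miR-10b-5p limits what this comparison could detect.

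The comparison of AM132 with RCD used the same 4 RCD libraries of batch 2, so it shares its controls with that of AM608. AM132 had 72.9, 101.5 and 193.9 CPM of miR-10a-5p (lowest, median, highest of 8), and 6 of 8 libraries were above the RCD mean. Its log2 fold change over RCD was 0.37 ± 0.21 (edgeR, adjusted p = 0.557), and without AM132 6 it was 0.18 ± 0.14. For miR-10b-5p AM132 had 24.7, 42.3 and 264.8 CPM, also with 6 of 8 above the RCD mean. Its log2 fold change was 0.93 ± 0.54 (adjusted p = 0.564), against 0.16 ± 0.28 without AM132 6 and 0.13 ± 0.26 by DESeq2, which replaces extreme counts. Of 599 miRNAs 0 passed (0%) with edgeR, 59 had an unadjusted p under 0.05, and 0 passed by DESeq2. For miR-615-3p the log2 fold change was 0.38 ± 0.34 (adjusted p = 0.753), or 0.61 without RCD 10 and 0.25 without RCD 11.

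**Figure D2:**
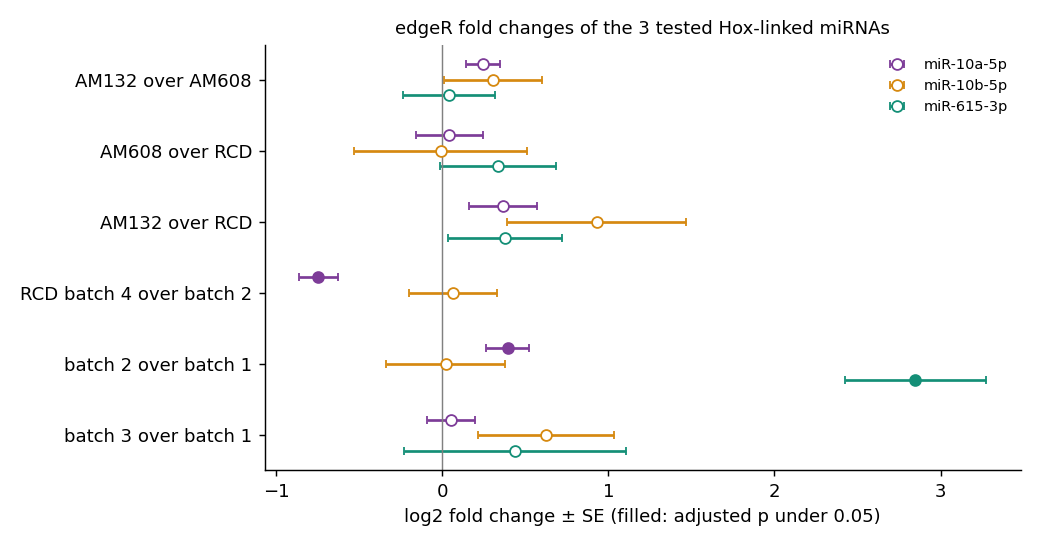
Log2 fold change ± SE from edgeR of miR-10a-5p, miR-10b-5p and miR-615-3p in 6 comparisons, each named as one set of libraries over another, with filled points for an adjusted p under 0.05. The filled points are miR-10a-5p in RCD of batch 4 over batch 2 (-0.75) and in batch 2 over batch 1 (0.39), and miR-615-3p in batch 2 over batch 1 (2.85), which passed the filter on low counts through batch 2, where it is high.

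miR-10a-5p passed the test in 2 of the 3 comparisons between batches. Libraries of lean chow mice fell in 2 batches. RCD libraries of batch 4 had 37.9, 49.4 and 61.1 CPM of miR-10a-5p (lowest, median, highest of 8), against 88.6, 99.4, 76.2 and 76.5 CPM in the 4 of batch 2. The ranges did not overlap, and all 8 libraries of batch 4 were below the mean of batch 2. Batch 4 over batch 2 gave a log2 fold change of -0.75 ± 0.12 (edgeR, adjusted p = 6.46e-05). Such differences were common between these batches: of 598 miRNAs tested 55.4% passed, 28.4% as lower in batch 4 and 26.9% as higher. Leaving out each RCD library of batch 2 in turn gave -0.79 to -0.68.

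In the same RCD libraries miR-10b-5p did not pass. It had 20.7, 41.1 and 57.4 CPM (lowest, median, highest of 8) in batch 4, against 39.6, 54.8, 31.5 and 23.8 CPM in batch 2, with a log2 fold change of 0.07 ± 0.27 (edgeR, adjusted p = 0.854). None of the relatives was called lower in batch 4. The log2 fold change of miR-99b-5p was 0.26 ± 0.08 (adjusted p = 0.0103) and that of miR-125a-5p 0.19 ± 0.07 (adjusted p = 0.0202), both higher in batch 4. Values for the relatives that did not pass were 0.27 for miR-99a-5p, 0.14 for miR-100-5p and -0.01 for miR-125b-5p. Cell type markers moved between these libraries as well. The summed level of 3 oligodendrocyte miRNAs was 660.5 to 1146 CPM in RCD of batch 4 and 1829 to 1988 CPM in RCD of batch 2, and none of the 3 was at 0 throughout. That of 5 neuronal miRNAs was 304550 to 382553 CPM in batch 4 and 208060 to 225925 CPM in batch 2. That of 2 endothelial miRNAs was 17383 to 21326 CPM in batch 4 and 11895 to 16208 CPM in batch 2. None of these ranges overlapped, but those of the other marker lists did. The sum of 2 mural miRNAs, of the cells around blood vessels, was 5033 to 10191 CPM in batch 4 and 4031 to 8839 CPM in batch 2. Choroid plexus and ciliated sums had medians of 2918 CPM in batch 4 and 4739 CPM in batch 2. Their ranges overlapped only through RCD 2 (12656 CPM) and RCD 5 (7165 CPM). The next highest library of batch 4 had 3347 CPM (RCD 7), below the 4408 to 5009 CPM of batch 2. Muscle sums overlapped, with medians of 202.5 CPM in batch 4 and 363.3 CPM in batch 2. Pituitary and epithelial and erythroid sums overlapped as well. The part of these differences in the result for miR-10a-5p was not tested.

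The AM132 and AM608 libraries, present in equal numbers in each batch, also differed in miR-10a-5p between batch 2 and batch 1. The level was 66.6, 92.2 and 193.9 CPM (lowest, median, highest of 16) in batch 2, against 56.9, 69.8 and 99.8 CPM (of 8) in batch 1. The ranges overlapped, and 15 of 16 libraries of batch 2 were above the mean log2 CPM of the 8 libraries of batch 1, both groups together. The log2 fold change was 0.39 ± 0.13 (edgeR, adjusted p = 0.00744), where 65.3% of 596 miRNAs passed, 34.9% as higher in batch 2 and 30.4% as lower. Without AM132 6 it was 0.31 (adjusted p = 0.00755). Over all libraries of each batch, the neuronal sum was 186753 to 269898 CPM in batch 2 and 283984 to 385744 CPM in batch 1, and the choroid plexus and ciliated sum was 3953 to 5169 CPM in batch 2 and 2295 to 2908 CPM in batch 1. The oligodendrocyte sum had a median of 1945 CPM in batch 2 and 550.3 CPM in batch 1, with overlap. Endothelial and mural sums had lower medians in batch 2, at 13420 and 4702 CPM, against 15952.5 and 6549 CPM in batch 1, also with overlap. Muscle, pituitary and epithelial, and erythroid sums overlapped too. The part of these sums in the result was not tested. For miR-10b-5p the log2 fold change was 0.02 ± 0.36 (adjusted p = 0.966), or -0.36 ± 0.24 without AM132 6. Between batch 3 and batch 1 no Hox-linked miRNA passed, and neither did any of the 596 tested (0%), with 73 at an unadjusted p under 0.05 and 9 called by DESeq2. There miR-10a-5p had a log2 fold change of 0.05 ± 0.14 (adjusted p = 0.97) and miR-10b-5p one of 0.62 ± 0.41 (adjusted p = 0.543).

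The ratio of miR-10a-5p to miR-10b-5p sets the pair against each other within a library and needs no scaling. It was computed as log2 of the counts with 0.5 added to each, and 7 comparisons of it were tested by 2-sided permutation. Over all 44 libraries the median ratio was 1.83, so miR-10a-5p was usually the more abundant. The median was 2.48 in batch 2, 1.32 in batch 1, 1.35 in batch 3 and 1.24 in batch 4. In 6 of 44 libraries miR-10b-5p was above miR-10a-5p: AM132 6, AM132 16, AM608 15, AM608 16, RCD 4 and RCD 8.

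**Figure D3:**
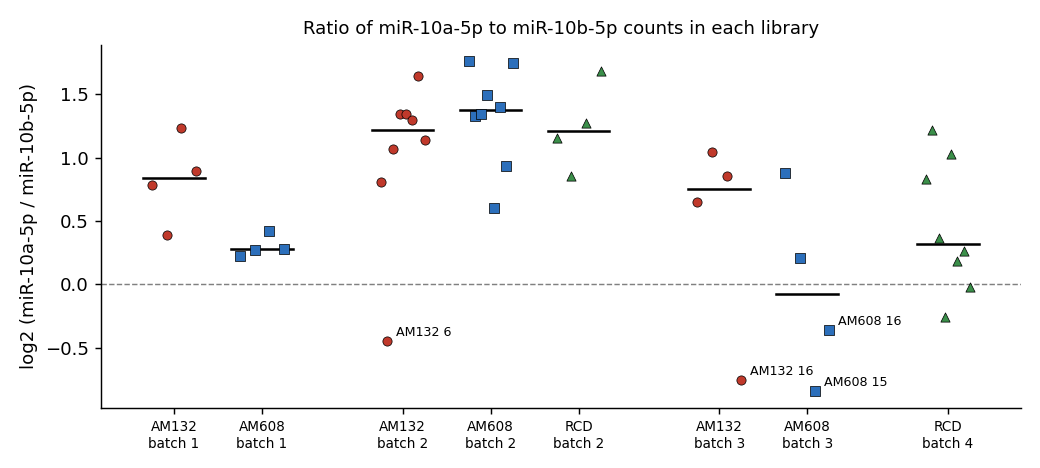
Log2 ratio of miR-10a-5p to miR-10b-5p counts in each library by group and batch, with black lines at the medians and a dashed line at equal counts. The 4 named libraries and 2 RCD libraries of batch 4 lie below the dashed line, and the other 38 lie above it.

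No comparison of the ratio passed after adjustment. The mean log2 ratio was 0.83 ± 0.64 in AM132 and 0.73 ± 0.76 in AM608 (n = 16 in either group, SD). The difference of 0.10 did not pass (permutation within batch p = 0.63, adjusted 0.729), and it was 0.22 without AM132 6. In batch 1 it was 0.83 ± 0.35 in AM132 and 0.30 ± 0.08 in AM608 (n = 4 each), a difference of 0.53 with some overlap (exact permutation p = 0.0571, adjusted 0.2, where 4 against 4 libraries allow no p below 0.0286). The difference was -0.30 in batch 2 (exact permutation p = 0.304, adjusted 0.65), or -0.09 without AM132 6, and 0.48 in batch 3 (exact permutation p = 0.371, adjusted 0.65). RCD libraries had 0.45 ± 0.52 in batch 4 (n = 8) and 1.24 ± 0.34 in batch 2 (n = 4), a difference of -0.79 (exact permutation p = 0.0242, adjusted 0.17). Those RCD ranges overlapped, at -0.26 to 1.22 in batch 4 and 0.86 to 1.68 in batch 2. In batch 2 the difference was 0.08 for AM608 over RCD (exact permutation p = 0.729, adjusted 0.729) and -0.22 for AM132 over RCD (exact permutation p = 0.62, adjusted 0.729), or -0.0083 without AM132 6.

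The high values of miR-10b-5p came in single libraries of both oligonucleotides. In batch 3 it had 47.6, 35.2, 41.7 and 139.5 CPM in AM132 13 to 16, against 36.8, 53.9, 135.6 and 102.9 CPM in AM608 13 to 16. In the same order miR-10a-5p had 74.6, 72.7, 75.5 and 82.4 CPM in AM132, against 67.7, 62.4, 75.5 and 79.9 CPM in AM608. In 3 of these 8 libraries, AM132 16, AM608 15 and AM608 16, miR-10b-5p was thus high while miR-10a-5p was not. Above the median of the other libraries of batch 3, miR-10b-5p was 1.54 higher on the log2 scale in AM132 16 and 1.502 higher in AM608 15, and in each it ranked 1st among 407 miRNAs of at least 10 CPM. In AM608 16 it was 1.10 higher and ranked 7th, and miR-10a-5p in the 3 libraries was 0.02 to 0.14 higher.

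The same 3 libraries had the lowest oligodendrocyte miRNAs of batch 3. The sum of miR-219a-5p, miR-219a-2-3p and miR-338-3p, miRNAs of the myelin-forming cells, was 289.3 CPM in AM132 16, 302.4 CPM in AM608 15 and 293.5 CPM in AM608 16, against 525.7 to 901.6 CPM in the other 5 libraries. Other batches did not show this order throughout. In batch 1 AM608 3 had the highest miR-10b-5p (62.8 CPM) and an oligodendrocyte sum of 1066 CPM, below AM132 3 only. In batch 2 the lowest sum (AM132 5, 1306 CPM) and the highest (AM608 11, 2479 CPM) came with 55.3 and 48.0 CPM of miR-10b-5p, both above the batch median of 38.8 CPM. Over the 44 libraries, after the mean of each group and batch was taken off, the correlation of this sum with miR-10b-5p was r = -0.31 and without AM132 6 r = -0.42. The 6 choroid plexus and ciliated miRNAs had a similar r of -0.37 with miR-10b-5p, and -0.40 without AM132 6. In batch 3 their sum was 1938 CPM in AM132 16, the lowest of the 8, 2879 CPM in AM608 15 and 3164 CPM in AM608 16, within the range of the others. Neuronal sums of these 3 libraries were 388876 to 396325 CPM, within the 335391 to 399220 CPM of the other 5. AM608 15 also had the highest endothelial and mural sums of batch 3 (21134 and 12084 CPM), and AM608 16 the highest erythroid sum (2391 CPM). With miR-10a-5p the oligodendrocyte sum had r = 0.10. Values of one library share its depth and scaling, so these correlations describe the libraries only. Whether tissue composition plays a part in the miR-10b-5p values was not tested.

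**Figure D4:**
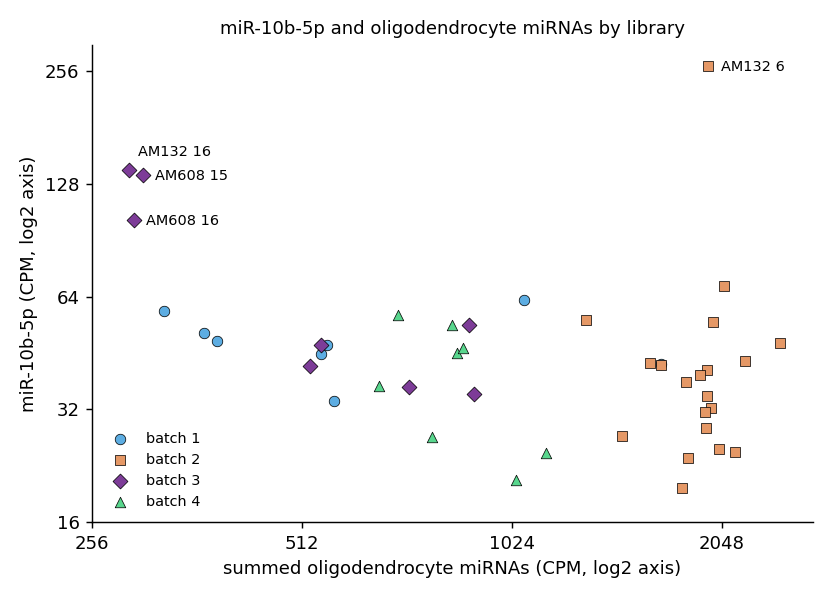
Level of miR-10b-5p against the summed level of 3 oligodendrocyte miRNAs in 44 libraries, both in CPM on log2 axes, with the symbol giving the batch. The means of group and batch were not taken off here. AM132 16, AM608 15 and AM608 16 lie at the upper left with 289.3 to 302.4 CPM of oligodendrocyte miRNAs, and AM132 6 lies alone at 264.8 CPM of miR-10b-5p.

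AM132 6, in batch 2, differed from those 3 libraries in that both miR-10 members were high. It had 193.9 CPM of miR-10a-5p (769 counts) and 264.8 CPM of miR-10b-5p (1050 counts), which were 1.10 and 2.79 above the batch 2 median on the log2 scale. Other miRNAs stood higher above their batch median there, as miR-10b-5p ranked 13th of 407 and miR-10a-5p 32nd. The sum of 4 muscle miRNAs was 3144 CPM in AM132 6, against a batch 2 median of 353.0 CPM. The sum of 10 pituitary and epithelial miRNAs was 22722 CPM, against a median of 469.0 CPM, and the sum of 2 mural miRNAs, of the cells around blood vessels, was 16870 CPM, against 4702 CPM. AM608 5 also had 21110 CPM of the pituitary and epithelial miRNAs, and it had 92.8 CPM of miR-10a-5p and 27.3 CPM of miR-10b-5p, within the range of the other AM608 libraries of its batch.

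Over all 44 libraries, the miRNA most like each miR-10 member was the other member. Likeness was the Pearson correlation of log2 CPM over 44 libraries after the mean of each group and batch was taken off, among 406 other miRNAs of at least 10 CPM. Between miR-10a-5p and miR-10b-5p it was r = 0.73 (Spearman 0.65), and r = 0.57 without AM132 6. Without that library miR-10b-5p still ranked 1st for miR-10a-5p, but miR-10a-5p ranked 3rd for miR-10b-5p, behind miR-92a-3p (0.60) and miR-139-3p (0.58), which were named after their values were seen. Next for miR-10a-5p came miR-199a-5p (0.71), miR-378a-3p (0.70), miR-143-3p (0.68) and miR-145a-3p (0.68), which were 0.55, 0.43, 0.53 and 0.54 without AM132 6. For miR-10b-5p they were miR-148a-3p (0.67), miR-378a-3p (0.66), miR-148a-5p (0.65) and miR-31-5p (0.64), which were 0.33, 0.31, 0.29 and 0.40 without AM132 6. Those of miR-10b-5p thus rested more on that library. The relative miR-100-5p had r = 0.25 with miR-10a-5p (0.40 without AM132 6) and 0.35 with miR-10b-5p (0.51 without it, the 5th highest).

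Markers of blood vessels were set against the miR-10 members in the same way. The summed mural miRNAs, miR-143-3p and miR-145a-5p, had r = 0.68 with miR-10a-5p (0.53 without AM132 6) and 0.46 with miR-10b-5p (0.20 without it). The summed endothelial miRNAs, the arms of miR-126a, had r = 0.43 with miR-10a-5p (0.55 without AM132 6) and 0.27 with miR-10b-5p (0.35 without it). The summed neuronal miRNAs had r = -0.18 with miR-10a-5p and -0.06 with miR-10b-5p, and both turned positive without AM132 6 (0.08 and 0.24). Other lists had values of similar size: the muscle miRNAs had r = 0.65 with miR-10a-5p (0.35 without AM132 6), and the pituitary and epithelial miRNAs had r = 0.53 (0.25 without it). With miR-10b-5p the muscle miRNAs had r = 0.46 (-0.05 without AM132 6), and the pituitary and epithelial miRNAs 0.45 (0.13 without it). The difference between these correlations was not tested.

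miR-615-3p, from the intron of Hoxc5, was seen mainly in batch 2. Of its 251 counts 213 were in the 20 libraries of batch 2, each with 5 to 21 counts (1.17 to 4.36 CPM). The other 24 libraries held 38 counts, with 0 to 5 each and 6 libraries at 0 (0 to 1.25 CPM). Pooled without scaling, that was 2.76 CPM in batch 2 and 0.364 CPM in the other batches, a 7.58-fold ratio. Every group shared it: the batch 2 counts were 91 in 8 AM132 libraries, 82 in 8 AM608 libraries and 40 in 4 RCD libraries. In batch 1 they were 5 in AM132 and 5 in AM608, in batch 3 7 in AM132 and 6 in AM608, and in batch 4 15 in 8 RCD libraries.

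**Figure D5:**
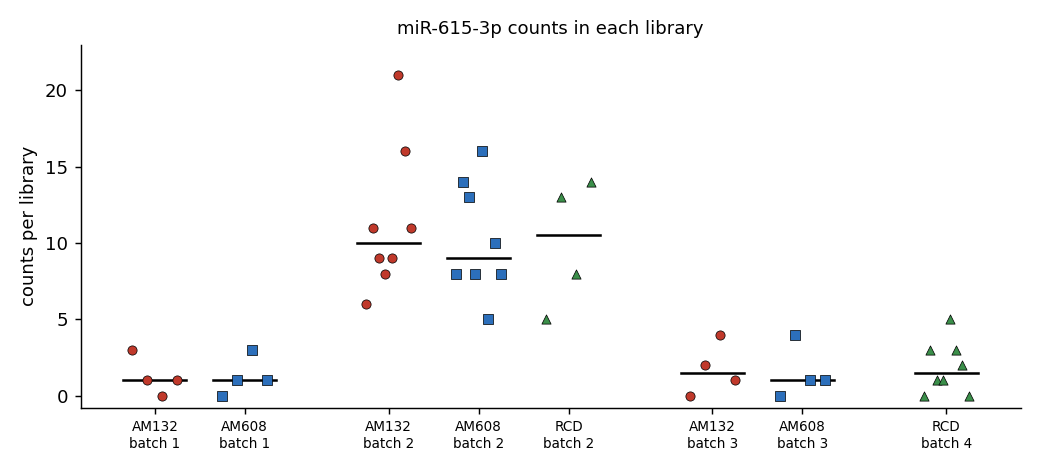
Counts of miR-615-3p in each of 44 libraries by group and batch, with black lines at the medians. The 20 libraries of batch 2 have 5 to 21 counts in all 3 groups, and the other 24 libraries have 0 to 5.

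The log2 fold change of miR-615-3p between batch 2 and batch 1, within AM132 and AM608, was 2.85 ± 0.43 (edgeR, adjusted p = 7.21e-07), where 34.9% of all tested miRNAs were higher in batch 2. It passed the filter on low counts through batch 2, where it is high, so its entry into that test was not independent of the difference. Without a filter the log2 fold change was 2.85 ± 0.42 (edgeR, adjusted p = 6.71e-07 over 1503 miRNAs). Between batch 3 and batch 1 its log2 fold change was 0.44 ± 0.67 (adjusted p = 0.871). Among RCD libraries miR-615-3p did not pass the filter and was not tested.

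The miR-196 pair was detected as scattered single counts. miR-196a-5p had 8 counts in 6 of 44 libraries, of which 1 was in AM132, 2 were in AM608 and 5 in RCD. Those 5 were all in batch 2, with 1 in RCD 10, 2 in RCD 11 and 2 in RCD 12, while the 8 RCD libraries of batch 4 had 0, which allows up to 0.0788 CPM by the level that 3 counts would give (exact Poisson upper limit 0.0969 CPM). Pooled over all libraries the level was 0.044 CPM (exact Poisson 95% interval 0.019 to 0.0867). miR-196b-5p had 16 counts in 13 of 44 libraries, 7 in AM132, 5 in AM608 and 4 in RCD, with at most 3 counts in a library (AM132 10), and its pooled level was 0.088 CPM (0.0503 to 0.143). Neither passed the filter on low counts in any comparison, and no test of either is given.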

How the data were processed

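Small RNA libraries of hypothalamus were made from 200 ng of RNA with the NEBNext kit and read on a NextSeq 500, per the labels. The authors deposited raw read counts per mature miRNA. The submitters' processing notes name FastQC, while aligner, genome build and miRNA release are not given in the sources used here. Each column was tied to its sample by group and number. The members, marker lists and tests were chosen with earlier results of these data known. Named miRNAs are the 5 members, their other arms, the miR-99, miR-100 and miR-125 relatives, the 5 most similar miRNAs of each miR-10 member, and markers of the cell type lists.

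Counts were kept by filterByExpr with the design (minimum count 10, minimum total 15), scaled by TMM and tested with edgeR 4.0.16 in R 4.3.3, adjusted by Benjamini-Hochberg over all tested miRNAs at 0.05. AM132 was compared with AM608 with batch as a term, RCD within batch 2, and batches within the groups they share. The SE is the absolute fold change over the square root of F. CPM used TMM over 44 libraries, log2 CPM a prior count of 2, and ratios 100000 resamples or exact enumeration. Alternatives included RLE scaling, DESeq2 1.42.0, other filters, left-out libraries, single batches and a replicate block. No library duplicated another of its group (smallest chi-square per degree of freedom 5.02), and pairs across groups were not checked. The fits were checked on simulated data. A table of tRNA fragments was not used here.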

Additional observations from a re-analysis of the deposited data

Results flagged for a closer look

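Of 32 checks for a value far from the others, 3 found one, and chance alone gives about 1 in 20 per check. The checks covered miR-10a-5p, miR-10b-5p, miR-615-3p and the log2 ratio in each set of group and batch, of 4 or 8 libraries. All 3 are values of AM132 6 among the 8 AM132 libraries of batch 2. They are not independent, because the ratio is computed from both miR-10 members. Its miR-10a-5p was 7.60 log2 CPM, and the next highest library had 6.76. Its miR-10b-5p was 8.05 log2 CPM, and the next highest had 5.80. Its log2 ratio of miR-10a-5p to miR-10b-5p was -0.45, and the next lowest had 0.81.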

How the results depend on the processing

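The calls of miR-10a-5p between batches held under every alternative run, at -0.79 to -0.68 (log2) for RCD of batch 4 over batch 2 and 0.27 to 0.40 for batch 2 over batch 1. No alternative called miR-10a-5p or miR-10b-5p between treatment groups. AM132 against AM608 gave 2 calls, against 1 under RLE scaling, without a filter, without AM132 5, AM132 6 and AM608 5, or in batch 2 alone, and 0 with no batch term, in batch 1 alone or in batch 3 alone. AM132 against RCD gave 0 calls, and 1 without AM132 6, without those 3 libraries or with the replicate block. Batch 3 against batch 1 gave 0, against 9 with DESeq2, 8 at a minimum of 10 CPM, and 2 without AM132 6, without the 3 libraries, or with a filter by group alone, a setting chosen after seeing the data.

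Without the 3 libraries the difference in the log2 ratio of miR-10a-5p to miR-10b-5p changed sign in batch 2, to 0.042 for AM132 over AM608 and 0.063 for AM132 over RCD. Leaving out 1 RCD library of batch 2 at a time gave -0.044 to 0.23 for AM608 over RCD. For miR-10b-5p, uncalled throughout, AM132 over AM608 was -0.068 without AM132 6, -0.15 without the 3 libraries, -0.18 in batch 1 and -0.34 in batch 3. AM608 over RCD was 0.030 without the 3 libraries, 0.30 over all 44, and -0.18 to 0.21 with 1 RCD library left out (-0.026 to 0.10 for miR-10a-5p and 0.20 to 0.57 for miR-615-3p). RCD of batch 4 over batch 2 was -0.096 to 0.29 with 1 RCD library left out, and batch 2 over batch 1 was -0.36 without AM132 6, -0.42 without the 3 libraries and -0.00079 with the filter by group alone. The causes were not tested.

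Replicate numbers were not taken to pair the libraries, since the labels do not state a pairing. Same-numbered AM132 and AM608 libraries correlated at -0.311 to 0.536, with 11 of 16 pairs above 0.1, and 6 of 16 correlated best with their own number. No chance level was computed for these counts, so they do not settle whether the numbers pair the libraries. With a replicate block the log2 fold change of AM132 over AM608 was 0.24 for miR-10a-5p (adjusted p = 0.52) and 0.12 for miR-10b-5p, and that of AM608 over RCD was 0.13 for miR-10b-5p. Depth limits the miR-196 pair and, outside batch 2, miR-615-3p.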
